A study of Oryza sativa Indica Group with 27 samples.

Results

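The genes described here encode 10 enzymes of the Calvin cycle, the pathway that fixes carbon dioxide in the chloroplast. They were chosen by a list of 10 Rice Annotation Project (RAP) identifiers, and all 10 were found among the 37869 genes of the expression table. The enzyme names came with the list and were not checked against an annotation here. The plants were erf71, a Nipponbare transgenic line overexpressing OsERF71, a transcription factor of the AP2/ERF family, then Vandana, an Indica variety that the labels call drought tolerant, and WT, which is Nipponbare. Whole plants at the 3-leaf stage were dehydrated by taking away the culture solution, and were frozen 0, 1, or 6 h later (hours after treatment, HAT), where 0 HAT stands for untreated plants. Poly(A) RNA of each plant and time point gave 1 library, so 9 libraries were used and no condition had a replicate. The series has no library of untreated plants at 1 or 6 HAT, so hours of dehydration and time of day cannot be told apart. The labels describe the transgenic plants only as carrying AP2 in Nipponbare, and they do not give the promoter or the number of independent lines.

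The Calvin cycle runs in the stroma and has a carboxylation step carried out by Rubisco, a reduction phase that spends ATP and NADPH to make triose phosphate, and a regeneration phase that rebuilds ribulose bisphosphate, the acceptor of carbon dioxide. Phosphoglycerate kinase (PGK) and the A and B subunits of chloroplast glyceraldehyde-phosphate dehydrogenase (GAPA and GAPB) act in the reduction phase. The other 7 members act in regeneration. Triosephosphate isomerase (TPI), aldolase, fructose-bisphosphatase (FBPase), sedoheptulose-bisphosphatase (SBPase), transketolase, and ribulose-phosphate epimerase (RPE) rearrange the sugar phosphates, and phosphoribulokinase (PRK) makes the acceptor. In leaves the genes of these chloroplast enzymes are nuclear, and light is known to raise their transcripts.

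Expression levels are given in FPKM, fragments per length of transcript and per mapped fragments of the library, which allows levels of different genes to be compared. Some libraries went against their labels or stood apart. Dip1 and SNAC1, genes known to be induced by dehydration, were at 86.8, 317, and 3354 FPKM (Dip1) and at 46.3, 117, and 1053 FPKM (SNAC1) at 0, 1, and 6 HAT in erf71, and WT likewise had its lowest values at 0 HAT. In Vandana, Dip1 was at 383, 101, and 2275 FPKM and SNAC1 at 175, 23.4, and 1429 FPKM, so the library labelled 0 HAT was above that labelled 1 HAT for both genes. Rab16A and LEA3 were also planned for this check of the labels but were not examined, so it rests on Dip1 and SNAC1 alone. The Vandana library of 6 HAT held 15294 genes above 1 FPKM, against 20108 to 22503 in the other libraries. OsERF71 was at 201, 172, and 264 FPKM in erf71, at 138, 159, and 50.8 FPKM in Vandana, and at 133, 122, and 187 FPKM in WT. Depth is unknown because FPKM keeps no read numbers.

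All 10 members fell by 6 HAT in a test across the 3 plants, with log2 changes between -2.30 for TPI and -5.03 for GAPA. The test was limma on log2(FPKM + 0.1) with plant and time as terms, so its error is the spread of the time course between plants, and p-values were adjusted by the Benjamini-Hochberg procedure over 23576 genes. Of all these genes, 18% passed in the same direction at an adjusted p under 0.05. The members' median change was -3.72 on the log2 scale, beside -0.94 over all genes tested. Without Vandana, whose early labels are in doubt, 10 of 10 members passed, with adjusted p from 0.00254 to 0.00516 in limma, where 36% of all genes passed in the same direction. Without erf71, 7 passed in limma, where 1.12% of all genes did. TPI, transketolase, and RPE did not pass, at adjusted p of 0.0773, 0.0733, and 0.0737 in limma and with log2 changes of -2.64, -2.48, and -2.79. Without WT, 0 members and 0% of all genes passed in limma. The members' log2 changes lay between -5.55 and -2.59 in that fit (adjusted p from 0.0647 to 0.110 in limma), and all 10 members had an unadjusted p under 0.05, as did 24% of all genes. In these fits with a plant left out only 2 residual degrees of freedom were left. Set against the mean of 0 and 1 HAT, a comparison added after the values were seen, 10 of 10 members were lower at 6 HAT in limma, where 25% of all genes were.

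The values of the members did not overlap between the times. Every library of 6 HAT was below every library of 0 and 1 HAT for 10 of 10 members, and 29.6% of all genes did the same. The smallest gap, between the highest library of 6 HAT and the lowest of the earlier ones, was 2.56-fold for TPI, and the largest was 12.1-fold for GAPA. In comparisons of single libraries, a gene was counted as changed at 2-fold or more with a level of 1 FPKM or more in either of the libraries. At 6 HAT over 0 HAT, 10 of 10 members were at least 2-fold lower in each plant, where the share of all genes was 34.8% in erf71, 61.4% in Vandana, and 37.3% in WT. The members' median log2 change was -3.95 in erf71, -3.69 in Vandana, and -3.85 in WT, beside -0.53, -1.71, and -0.60 for all genes in the same order of plants.

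**Figure D1:**
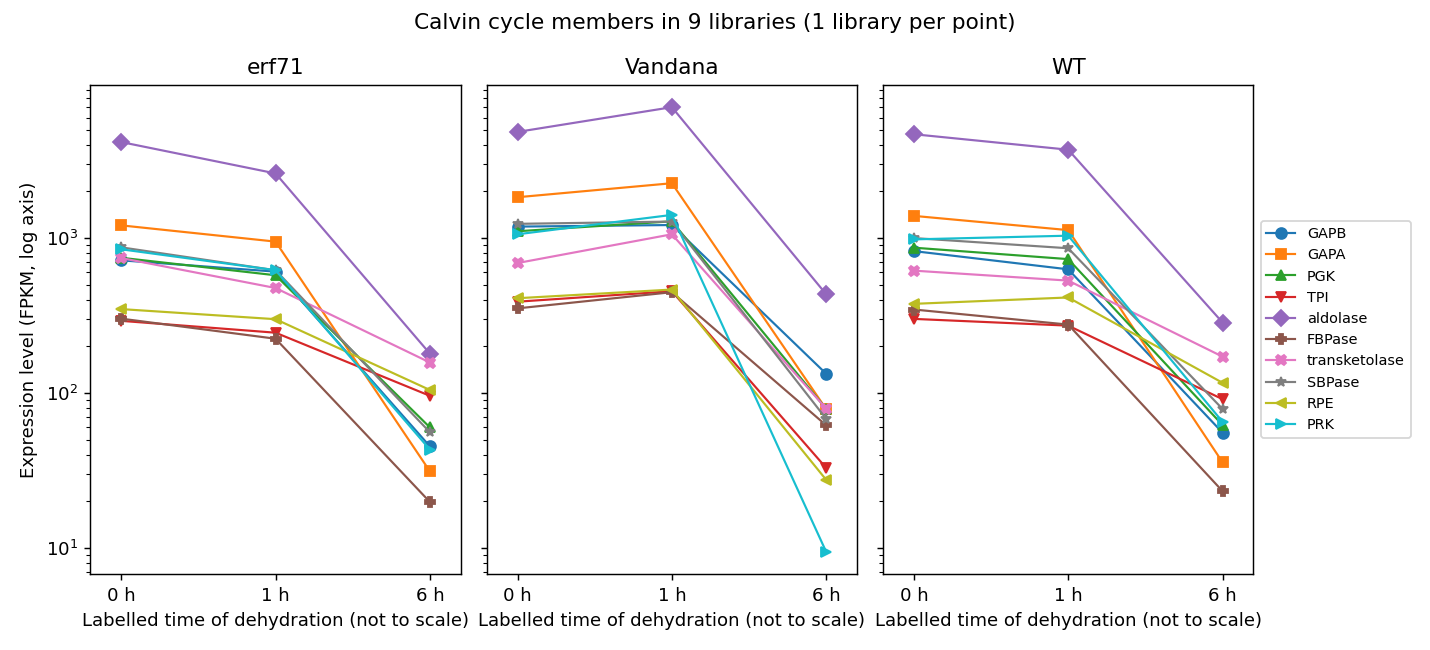
Expression level in FPKM (log axis) of each of the 10 members at 0, 1, and 6 HAT in erf71, Vandana, and WT, where each point is 1 library and each line joins 1 gene. All lines drop between 1 and 6 HAT, aldolase stays at the top in every library, and PRK in Vandana ends lowest, at 9.39 FPKM.

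The members together held 0.106% of the summed FPKM at 6 HAT in erf71, 0.117% in Vandana, and 0.140% in WT. At 0 HAT these shares were 1.24% in erf71, 1.61% in Vandana, and 1.35% in WT, and at 1 HAT they were 0.953%, 2.06%, and 1.30% in the same order. A share within a library does not depend on the scaling between libraries. In rank among all genes of a library, aldolase was at 300 to 665 at 6 HAT, against 6 to 12 at 0 and 1 HAT. PRK was at rank 1948 to 6582 at 6 HAT, against 47 to 127 before. Markers of green leaf cells, a list of 6 Rubisco small subunit and light-harvesting genes set down from general knowledge, moved with these values. Their summed level was 3132, 8514, and 4046 FPKM at 6 HAT in erf71, Vandana, and WT, against 17560 to 37638 FPKM in the 6 earlier libraries, and 6, 5, and 6 of the 6 markers were at least 2-fold lower than at 0 HAT. None of the 6 was at 0 in any library. A list of 5 root markers of the same origin summed to 10.5 to 26.4 FPKM at 6 HAT, against 29.1 to 546 FPKM before, and 1 marker was at 0 in 6 of the 9 libraries. Their part in the result was not tested. In whole plants, fewer green cells and less of these transcripts per cell cannot be told apart.

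In the reduction phase, PGK (Os05g0496200), which phosphorylates phosphoglycerate, was at 746, 575, and 59.9 FPKM at 0, 1, and 6 HAT in erf71. It was at 1107, 1283, and 78.8 FPKM in Vandana and at 867, 731, and 62.0 FPKM in WT. The 3 plants lay close together at 6 HAT, and in limma PGK fell by 3.75 on the log2 scale (SE 0.25, adjusted p 0.00174). As deposited, the log2 change of PGK was -3.64 in erf71, -3.81 in Vandana, and -3.80 in WT. With libraries scaled by the median ratio it was -3.37 in erf71, -2.71 in Vandana, and -3.45 in WT, so the Vandana value depends on scaling.

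GAPA (Os04g0459500), the subunit shared by both forms of the chloroplast dehydrogenase, was at 1208, 949, and 31.1 FPKM in erf71 at 0, 1, and 6 HAT. It was at 1836, 2261, and 78.5 FPKM in Vandana and at 1391, 1126, and 35.6 FPKM in WT. It was at place 2 by level among the members in all 6 libraries of 0 and 1 HAT, and at 6 HAT it was at place 9 of the 10 in erf71, place 5 in Vandana, and place 9 in WT. In limma GAPA fell by 5.03 on the log2 scale (SE 0.25, adjusted p 0.00174).

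GAPB (Os03g0129300), the subunit whose tail lets the enzyme be switched off in the dark, was at 719, 607, and 45.1 FPKM in erf71 at 0, 1, and 6 HAT. It was at 1186, 1214, and 133 FPKM in Vandana and at 824, 628, and 55.3 FPKM in WT. GAPB fell by 3.68 in limma (log2, SE 0.26, adjusted p 0.00174). The transcript of GAPA was more abundant than that of GAPB at 0 and 1 HAT and less abundant at 6 HAT in all 3 plants. The ratio of GAPA to GAPB was 0.690 in erf71, 0.591 in Vandana, and 0.644 in WT at 6 HAT, against 1.55 to 1.86 in the 6 earlier libraries. The ranges do not overlap, and since both values come from 1 library the ratio does not depend on scaling. This ratio was not planned, and how often other pairs of genes separate in this way was not counted.

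**Figure D2:**
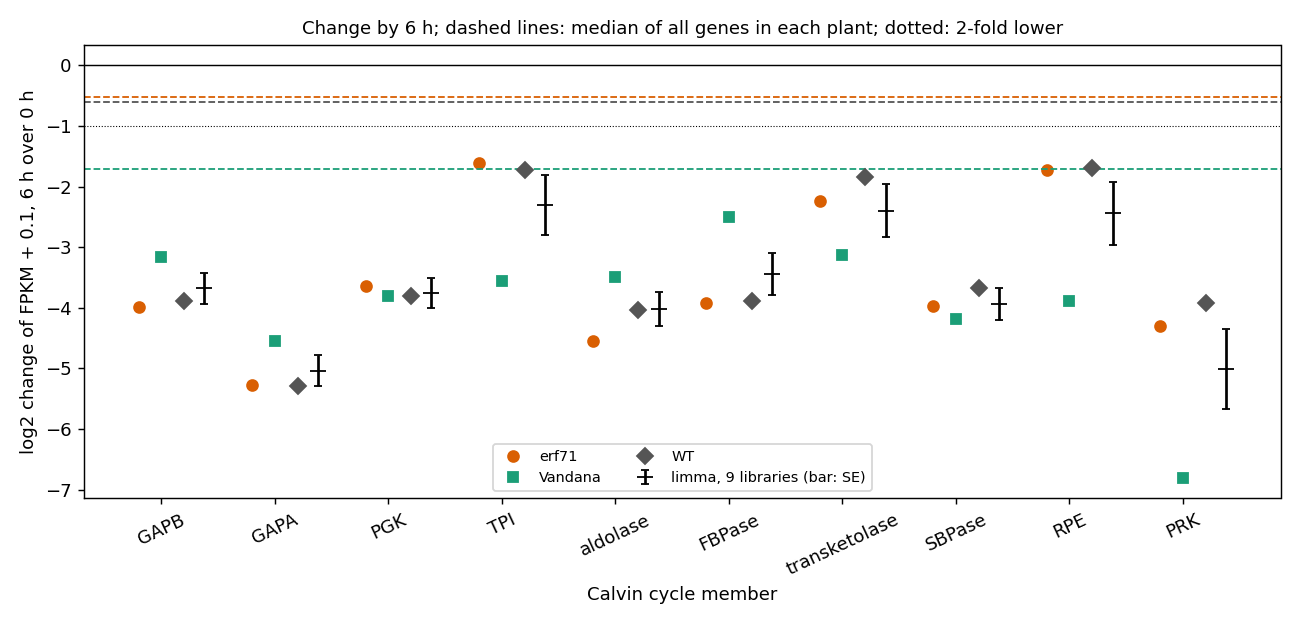
Log2 change of FPKM + 0.1 at 6 HAT over 0 HAT for each member in erf71, Vandana, and WT (1 pair of libraries per point), with the limma estimate over 9 libraries and its SE in black. Dashed lines mark the median of all genes in each plant (-0.53, -1.71, and -0.60), the dotted line marks a 2-fold lower level, and TPI, transketolase, and RPE lie nearest to 0 in erf71 and WT but not in Vandana.

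In the regeneration phase, aldolase (Os11g0171300), which joins triose phosphates, was the most abundant member in all 9 libraries. It was at 4172, 2616, and 179 FPKM in erf71, at 4851, 7007, and 433 FPKM in Vandana, and at 4686, 3723, and 285 FPKM in WT at 0, 1, and 6 HAT. The erf71 library was lowest at each time. Aldolase fell by 4.02 in limma (log2, SE 0.28, adjusted p 0.00174), and the change was -4.54 in erf71, -3.48 in Vandana, and -4.04 in WT.

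FBPase (Os03g0267300) and SBPase (Os04g0234600) remove a phosphate in steps that are in practice irreversible, and both enzymes are known to be activated by light through thioredoxin. FBPase was at 302, 224, and 19.7 FPKM in erf71, at 352, 447, and 61.7 FPKM in Vandana, and at 346, 276, and 23.2 FPKM in WT. SBPase was at 872, 620 and 55.7 FPKM in erf71, at 1236, 1279, and 68.0 FPKM in Vandana, and at 1001, 860 and 78.7 FPKM in WT. SBPase was the more abundant of the pair in every library. Both fell in limma, with log2 changes of -3.44 for FBPase (SE 0.34, adjusted p 0.00304) and -3.94 for SBPase (SE 0.26, adjusted p 0.00174). Their ratio, FBPase to SBPase, was 0.908 in Vandana at 6 HAT, against 0.284 to 0.361 at 0 and 1 HAT. At 6 HAT it was 0.354 in erf71 and 0.295 in WT, both within the range of the earlier libraries.

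PRK (Os02g0698000), which makes ribulose bisphosphate and, like the bisphosphatases, is known to be activated by light, was at 847, 620 and 43.0 FPKM in erf71 at 0, 1, and 6 HAT. It was at 1058, 1412, and 9.39 FPKM in Vandana and at 981, 1036, and 65.0 FPKM in WT. Vandana thus had the highest PRK of the 3 plants at 0 and 1 HAT and the lowest at 6 HAT. PRK was 19.7-fold lower at 6 HAT than at 0 HAT in erf71, 113-fold lower in Vandana, and 15.1-fold lower in WT. The size of the Vandana fall depends on scaling. As deposited the log2 change of PRK was -4.29 in erf71, -6.80 in Vandana, and -3.91 in WT. With libraries scaled by the median ratio it was -4.02, -5.71, and -3.56 in the same order. PRK fell in limma, with a log2 change of -5.0 (SE 0.66, adjusted p 0.00496), with the largest SE of the members.

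TPI (Os09g0535000), which interconverts the triose phosphates, was at 292, 245 and 95.8 FPKM in erf71, at 388, 454, and 32.7 FPKM in Vandana, and at 301, 272, and 91.1 FPKM in WT. Transketolase (Os06g0133800), which moves carbon units between sugar phosphates, was at 743, 476, and 157 FPKM in erf71, at 690.1, 1058, and 79.1 FPKM in Vandana, and at 616, 531, and 172 FPKM in WT. RPE (Os03g0169100), which turns xylulose phosphate into ribulose phosphate, was at 348, 299, and 104 FPKM in erf71, at 409, 465, and 27.4 FPKM in Vandana, and at 376, 414, and 116 FPKM in WT. For each of the 3, Vandana was lowest of the plants at 6 HAT. All 3 fell in limma, with log2 changes of -2.30 for TPI (SE 0.49, adjusted p 0.0195), -2.40 for transketolase (SE 0.44, adjusted p 0.0116), and -2.44 for RPE (SE 0.52, adjusted p 0.0193). With no filter on low values, where more genes are tested, RPE had an adjusted p of 0.0504 in limma.

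These 3 genes, set apart after their values were seen, showed smaller changes than the other 7 members in erf71 and WT. Their median log2 change at 6 HAT over 0 HAT was -1.73 in erf71 and -1.72 in WT, and that of the other 7 was -3.99 in erf71 and -3.89 in WT. In Vandana the medians were -3.56 for the 3 and -3.81 for the other 7. TPI was 3.05-fold lower in erf71, 11.9-fold lower in Vandana, and 3.30-fold lower in WT. RPE was 3.33-fold lower in erf71, 14.9-fold lower in Vandana, and 3.24-fold lower in WT. The Vandana values depend on scaling. Their log2 changes were -3.56 for TPI and -3.89 for RPE as deposited, and -2.47 and -2.80 with the median ratio. The 3 genes give no test of their own, since the choice followed the values.

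The make-up of the members' summed FPKM at 6 HAT differed from that at 0 HAT accordingly. In erf71 transketolase made up 19.9% of the sum at 6 HAT, against 7.25% at 0 HAT, and in WT 17.4%, against 5.41%. RPE made up 13.2% of the sum at 6 HAT in erf71, against 3.39% at 0 HAT, and 11.8% in WT, against 3.30%. By place, transketolase was at place 2 and RPE at place 3 of the members at 6 HAT in both plants, while at 0 and 1 HAT they were at places 6 to 7 and 8. In Vandana aldolase held 43.2% of the sum at 6 HAT, against 37.0% at 0 HAT, and PRK held 0.938%, against 8.07%. The highest member was 46.1-fold above the lowest in Vandana at 6 HAT, against 9.08-fold to 15.7-fold in the other libraries.

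**Figure D3:**
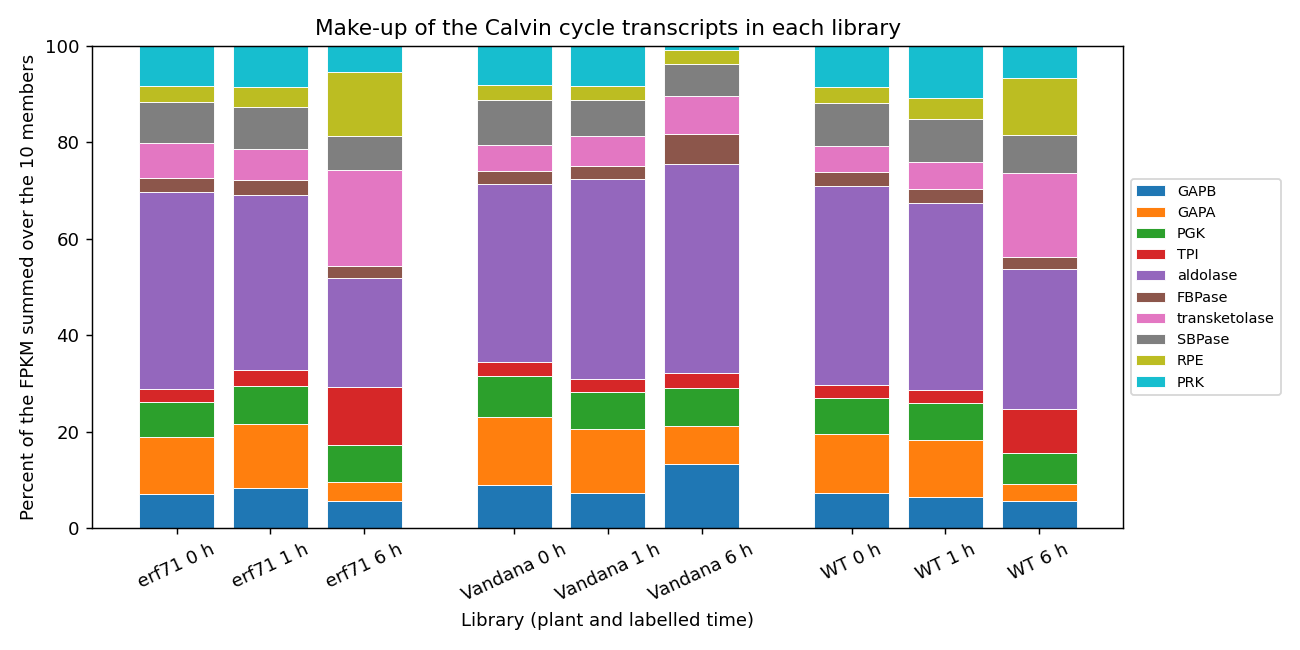
Percent of the FPKM summed over the 10 members that each member held in each of the 9 libraries (stacked bars adding up to 100). Aldolase held 22.7% in erf71, 43.2% in Vandana, and 29.0% in WT at 6 HAT, and transketolase, RPE, and TPI widened at 6 HAT in erf71 and WT, where GAPA narrowed to 3.94% and 3.62%.

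At 1 HAT over 0 HAT, limma called 0 of the 10 members and 0% of all genes, and at an unadjusted p under 0.05 it had 0 members and 164 of 23576 genes. The members' estimates lay between -0.22 and 0.04 on the log2 scale, each with an adjusted p of 1. In single libraries 0 of 10 members reached 2-fold in any plant, where 11.8% of all genes did in erf71, 14.7% in Vandana, and 22.8% in WT. Below that size the plants differed in sign. All 10 members were lower at 1 HAT in erf71 (median -0.40, range -0.67 to -0.22, all genes -0.12), where 63.1% of all genes were lower. All 10 were higher in the Vandana library labelled 1 HAT than in that labelled 0 HAT (median 0.26, range 0.03 to 0.62, all genes 0.06), and Dip1 and SNAC1 go against those labels. Of all genes, 44.3% were lower in that Vandana comparison. In WT 8 members were lower, beside 63.4% of all genes, and PRK and RPE were higher. The members' median in WT was -0.23, beside -0.20 for all genes. With libraries scaled to an equal sum the WT median was -0.04, so that no direction is given for WT. The leaf markers summed to 17560 FPKM at 1 HAT and 22408 FPKM at 0 HAT in erf71, to 37638 and 36558 FPKM in Vandana, and to 27995 and 29232 FPKM in WT. The root markers summed to 214 FPKM at 1 HAT and 546 FPKM at 0 HAT in erf71, to 407 and 132 FPKM in Vandana, and to 29.1 and 427 FPKM in WT. The part of either list in these values was not tested.

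The comparison of erf71 with WT asks whether these genes differed in level between the overexpressor and its background. limma called 0 of 10 members over the 3 times, each at an adjusted p of 1 and with 0 members at an unadjusted p under 0.05. It called 0.00424% of all genes, which is 1 gene, and 438 genes had an unadjusted p under 0.05. The estimates lay within 2 SE of 0, such as -0.45 (SE 0.28) for aldolase, -0.39 (SE 0.26) for SBPase, and -0.52 (SE 0.66) for PRK on the log2 scale. In single libraries 0 of 10 members differed at least 2-fold at 0, 1, or 6 HAT, where 11.7%, 18.5%, and 11.4% of all genes did.

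Below 2-fold, the values leaned one way. The level in erf71 was below that in WT in 28 of 30 pairs of member and time, a count that was 27 to 29 under the 3 other scalings. The exceptions were transketolase at 0 HAT (743 FPKM in erf71, 616 FPKM in WT) and TPI at 6 HAT (95.8 FPKM in erf71, 91.1 FPKM in WT). Of all genes, 55.0%, 49.9%, and 45.8% were lower in erf71 than in WT at 0, 1, and 6 HAT. For 8 of 10 members erf71 was lower at all 3 times, which held for 17.3% of all genes. The members share libraries and move together, so their number is not a number of independent observations. Their median log2 differences at 0, 1, and 6 HAT were -0.20, -0.32, and -0.21, beside -0.05, 0.00, and 0.04 for all genes. The differences furthest from 0 were those of PRK at 1 HAT (-0.74, 620 FPKM in erf71 against 1036 FPKM in WT), aldolase at 6 HAT (-0.67, 179 FPKM against 285 FPKM), and PRK at 6 HAT (-0.59, 43.0 FPKM against 65.0 FPKM). The leaf markers summed to 0.767, 0.627, and 0.774 of the WT level at 0, 1, and 6 HAT, and the root markers to 1.28, 7.35, and 2.51 of it. Their part in the differences was not tested.

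**Figure D4:**
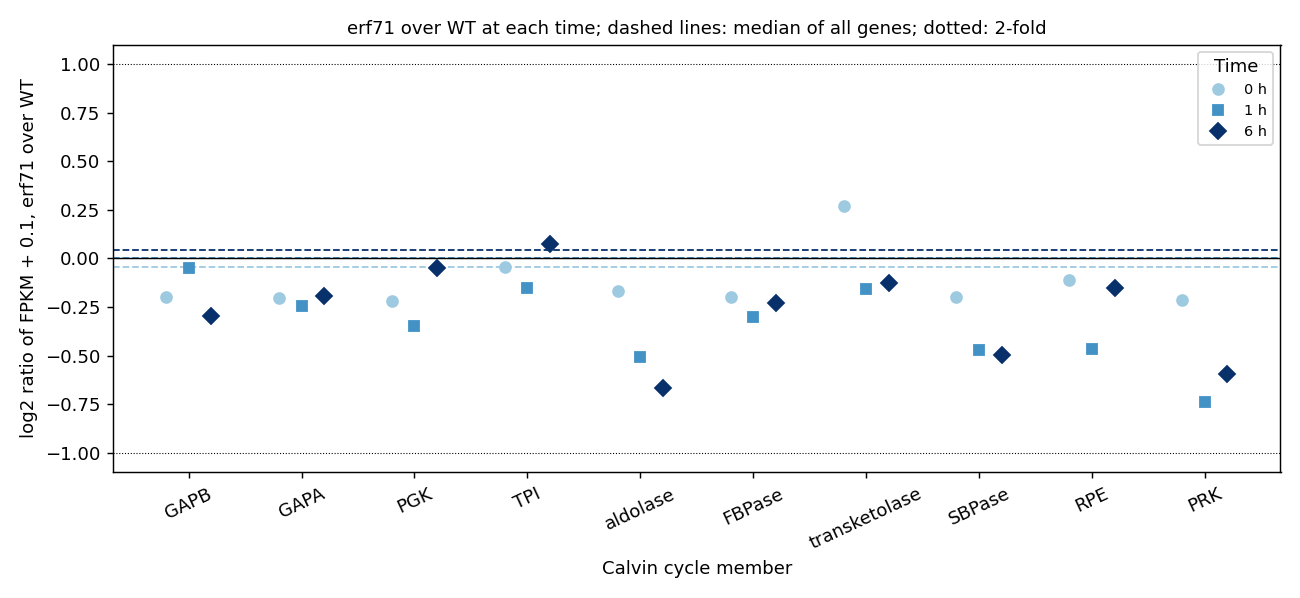
Log2 difference of FPKM + 0.1 between erf71 and WT at 0, 1, and 6 HAT for each member (1 pair of libraries per point), with dashed lines for the median of all genes and dotted lines at 2-fold. All points lie within 2-fold and 28 of 30 lie below 0 (27 to 29 under other scalings), down to -0.74 for PRK at 1 HAT. Of all genes, 55.0%, 49.9%, and 45.8% were below 0 at 0, 1, and 6 HAT.

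The log2 changes over time were also set side by side, as erf71 minus WT. For 1 HAT over 0 HAT the difference of the changes had a median of -0.20 over the members and ranged between -0.53 for PRK and 0.15 for GAPB, with 9 of 10 members below 0. The share of all genes below 0 was not taken for this difference, and the members move together, so the count is a description only. For 6 HAT over 0 HAT the difference of the changes had a median of -0.07 and ranged between -0.50 and 0.17. With 1 library per condition these differences have no test.

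Vandana and WT were compared at the same labelled times. In limma 0 of 10 members passed, where 8.49% of all genes did. GAPB (0.91, SE 0.26, adjusted p 0.0893) and GAPA (0.85, SE 0.25, adjusted p 0.105) had an unadjusted p under 0.05 in limma, which is 2 of 10 members beside 18.5% of all genes. Both had higher values in Vandana at all 3 times. GAPB was at 1186, 1214, and 133 FPKM in Vandana and at 824, 628, and 55.3 FPKM in WT. At 0 HAT all 10 members were above WT in the Vandana library by less than 2-fold (median 0.23), and 0 of 10 counted as changed, where 33.1% of all genes did. At 1 HAT all 10 were again above WT (median 0.77), and 1 of 10, GAPA at 1.01, was at least 2-fold higher, where 13.8% of all genes were. Of all genes, 55.8% were below WT in Vandana at 0 HAT and 43.9% at 1 HAT. With libraries scaled by the median ratio, 0 members reached 2-fold at 1 HAT. Both early Vandana libraries carry the labels that Dip1 and SNAC1 go against.

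At 6 HAT the members divided. FBPase (61.7 FPKM in Vandana, 23.2 FPKM in WT), GAPB (133 and 55.3 FPKM), and GAPA (78.5 and 35.6 FPKM) were at least 2-fold higher in Vandana, which is 3 of 10 members beside 17.2% of all genes. PRK (9.39 FPKM in Vandana, 65.0 FPKM in WT), RPE (27.4 and 116 FPKM), TPI (32.7 and 91.1 FPKM), and transketolase (79.1 and 172 FPKM) were at least 2-fold lower, which is 4 of 10 members beside 54.1% of all genes. The log2 differences spread between -2.78 for PRK and 1.41 for FBPase, around a median of 0.07, beside -1.24 for all genes. The sign of that median depends on scaling, at -0.22 with equal sums and 0.84 with the median ratio. Under the median ratio 5 members were at least 2-fold higher and 2 were at least 2-fold lower, and the share of all genes was not taken under that scaling. The leaf markers summed to 1.25, 1.34, and 2.1 of the WT level at 0, 1, and 6 HAT in Vandana, and the root markers to 0.308, 14.0, and 1.39 of it. The sum of the leaf list at 6 HAT does not speak for most of its genes. Of the 6 leaf markers, 1 was at least 2-fold higher in Vandana and 2 were at least 2-fold lower, with a median log2 difference of -0.44. The part of either list in the differences between Vandana and WT was not tested. Ratios within a library do not depend on scaling. FBPase to SBPase was 0.908 in Vandana and 0.295 in WT at 6 HAT.

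The members followed one another closely over the libraries. Over the 45 pairs of members, Pearson's r of log2(FPKM + 0.1) had a median of 0.955 and a range of 0.770 to 0.996 across 9 libraries. Across the 6 libraries of erf71 and WT the range was 0.969 to 1.00. These are descriptions over libraries that fall into an early and a late set. SBPase (r 0.998) and PGK (0.996) were closest to the members' mean profile, and RPE (0.914) was the farthest. Outside the members, 14584 genes with at least 10 FPKM in a library were compared with the mean profile, and 741 of them (5.08%) had r of at least 0.95. The 5 most alike genes had r between 0.997 and 0.998. The first, Os02g0117100, was at 49.2, 41.9, and 9.34 FPKM in erf71, at 58.8, 74.4, and 8.19 FPKM in Vandana, and at 55.1, 52.9, and 10.8 FPKM in WT. The next, Os07g0171100, was at 247, 190, and 18.1 FPKM in erf71, at 363, 448, and 14.0 FPKM in Vandana, and at 256, 263, and 19.5 FPKM in WT. Both have the early Vandana libraries highest and the 6 HAT libraries lowest, and no name is given for either here.

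The carboxylation step lies outside the members. Os12g0291100, a small subunit of Rubisco, had r of 0.960 with the mean profile and was at rank 565 of the 14584 genes. It was at 8588, 6544, and 700.1 FPKM in erf71, at 7447, 6925, and 228 FPKM in Vandana, and at 9251, 8043, and 802 FPKM in WT. Its log2 change at 6 HAT over 0 HAT was -3.62 in erf71, -5.03 in Vandana, and -3.53 in WT. In each plant this lay within the range of the members' changes, which was -6.80 to -2.51 in Vandana. At 6 HAT its level was lowest in Vandana, as for PRK, TPI, transketolase, and RPE.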

How the data were processed

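The deposited table gives FPKM for 37869 RAP genes, which the authors obtained with Cufflinks from adapter-clipped mRNA reads aligned by Tophat to IRGSP-1.0, the Nipponbare genome, for all plants. The submitters' processing notes also name TopHat2, Bowtie, and CASAVA 1.8.2. The series has 27 samples, of which the 9 mRNA libraries were used here. The columns name plant and hour but not the kind of library, and were taken as mRNA from the study's methods. Small RNA and riboZ libraries and the tables of noncoding RNA were not used. Each library holds 1314 to 1577 values above 0 and under 0.0001 FPKM, which whole reads cannot give, so reads were not recovered and depth is unknown.

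Samples were grouped by plant and time in the labels, and the AP2 transgenic was taken as erf71 from the study's methods. Log2 values were computed after adding 0.1 FPKM, which understates changes of low genes. A pair of libraries has no test. limma 3.58.1 (R 4.3.3) was fitted to all 9 libraries with plant and time as terms, an empirical Bayes trend, and a filter of 1 FPKM or more in 3 or more libraries, leaving 4 residual degrees of freedom. Its p-values measure how plants differ in time course (or times in plant difference), not replicate plants. The fit was tested on simulated data. Python 3.11.15, numpy 2.4.6, pandas 2.3.3, and matplotlib 3.10.9 were used for the rest. The named genes were the 10 members, those of most alike profile, and pathway genes where a source names the identifier. Other pathway, isoform, and photorespiration lists could not be checked against an annotation and were not used, and no sequence is shown for the same reason. Marker lists rest on general knowledge. The members and lists were chosen with earlier results of these data known. The alternatives were other scalings (median ratio, upper quartile, equal sum), a pseudocount of 1 FPKM, other filters and thresholds, no trend, and leaving out each plant or time.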

Additional observations from a re-analysis of the deposited data

Results flagged for a closer look

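The early change differed in sign between plants. At 1 HAT over 0 HAT all 10 members were lower in erf71 (median log2 change -0.40) and all 10 were higher in Vandana (median 0.26), and these signs were the same under the 3 other scalings. Of all genes, 63.1% were lower in erf71 and 44.3% were lower in Vandana. Each change rests on 1 pair of libraries, the difference was not tested, and the Vandana libraries labelled 0 and 1 HAT go against Dip1 and SNAC1.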

How the results depend on the processing

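No pairing of replicates was possible because the labels give no replicate numbers and each condition has 1 library. Plants and times serve as blocks in limma itself. Of the values that answer a comparison, 299 alternatives stayed within 1 SD over the members or within 1.5 times the count, 21 moved, and 2 turned in sign. The 21 include the members' share in each of the 9 libraries, which was put down as moved with no limit applied. Many of the 299 could not have moved. The lowest member value was 9.39 FPKM, so the other filters could not alter a count of 2-fold changes. A 4-fold threshold cannot raise a count of 0. Vandana over WT at 6 HAT had a median of -0.22 with equal sums and -0.29 as a mean over members. With upper quartile scaling the Vandana medians were -2.71 at 6 over 1 HAT and -2.33 at 6 over 0 HAT (-4.02 and -3.69 as deposited), and with equal sums the WT median at 1 over 0 HAT was -0.042. For TPI, transketolase, and RPE alone, a choice made after seeing the data, the medians at 6 over 0 HAT were -1.73 in erf71 and -1.72 in WT. Members at least 2-fold higher in Vandana than WT at 1 HAT were 0 with a 4-fold threshold and 0 with the median ratio. At 6 HAT, 0 (4-fold) and 5 (median ratio) were higher, and 2 were lower under either. Shares of all genes were not taken under these settings. The members' sum was also set against the library sum without the 100 genes of highest mean FPKM. Those 100 include 2 members, which were kept in the members' sum, so this ratio is not a share of a whole. At 0, 1, and 6 HAT it was 1.68%, 1.26%, and 0.134% in erf71 and 2.13%, 2.80%, and 0.165% in Vandana. In WT it was 1.81%, 1.66%, and 0.176%. limma called 0 to 10 members at 6 over 0 HAT when 1 plant was left out (0 without WT, 7 without erf71, and 10 without Vandana, beside 0%, 1.12%, and 36% of all genes). It called 9 with no filter on low values, where 3339 of 33924 genes passed in the same direction. It called 10 with median ratio (2806 of 23302 genes), upper quartile (2480 of 23296), and equal sum scaling (3247 of 23591). It also called 10 with a pseudocount of 1 FPKM (5304 of 23576 genes), a minimum of 5 FPKM (3082 of 16098), and no trend (4288 of 23576). The test of 6 HAT against the mean of 0 and 1 HAT, added after seeing the data, called 10 of 10 members beside 25% of all genes. Without WT it called 8 of 10, beside 835 of 23876 genes. Among single members, 361 alternatives kept their side of the threshold and direction, 25 estimates without a call changed sign, and 14 lost the call. Not all of the 25 were small. PRK in Vandana over WT was at -0.74 in the main fit and at 0.28 without 6 HAT. Ratios to cytosolic isoforms were not run because no annotation names those genes. FPKM without counts gives no limit of detection.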
